A study of Mus musculus with 8 samples.

Results

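The genes described here handle iron and copper: transport in plasma, uptake, storage in ferritin, breakdown of ferritin, export, metal oxidation and reduction, and release of iron from heme. They were 10 genes (Cp, Lcn2, Steap4, Fth1, Ftl1, Ncoa4, Trf, Tfrc, Slc40a1 and Hmox1) of the 55421 gene identifiers in the deposited tables. The genes were chosen by symbol with their values in these libraries already known, so their own differences are a description. Whether each passed a threshold, and how stably, is stated without its p-value and is not independent support. All 10 passed the filter on low counts. The RNA came from testes of WT male mice in 4 groups of 2 libraries each. In LPS+DHEA+Nb, mice were given lipopolysaccharide (LPS, the endotoxin of Gram-negative bacteria) and, 6 h later, DHEA (dehydroepiandrosterone, a steroid precursor) together with an agent labelled Nb23-bi. In LPS+DHEA, DHEA alone followed LPS after 6 h. The LPS group received LPS only, and the CTRL group phosphate buffered saline only, all by injection into the abdominal cavity. No dose, age or collection time was found in the labels, nor a statement that paired libraries stem from different mice, so the errors and p-values measure the spread between libraries, which may be technical.

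Cells take up iron bound to transferrin through the transferrin receptor, keep it in ferritin shells built of heavy and light chains, recover it when ferritin is delivered to lysosomes, and release it through ferroportin. During infection, hosts withhold iron from bacteria, among other means by binding bacterial iron chelators and by keeping iron inside cells. In the testis, Sertoli cells secrete transferrin and ceruloplasmin, which carry iron and copper to germ cells behind the blood-testis barrier.

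Iron control of this system acts largely on the mRNA, through iron responsive elements, short hairpins in untranslated regions that iron regulatory proteins bind when iron is scarce. Such binding is known to block translation of ferritin mRNA and to protect the transferrin receptor mRNA from decay. Annotated protein-coding transcripts were searched over their whole length, coding sequence included. The hairpin sought had arms of 5 paired bases, a bulged C and a loop of 6 bases that reads CAGTGN in DNA letters. Matches were found in 4 of the 10 genes, against 294 of 21901 protein-coding genes (1.3%) with a match anywhere in a transcript. Nothing is read from that share, because ferritin and transferrin receptor mRNAs were known to carry the element before the search. Fth1 and Ftl1 each held 1 match in the 5′ untranslated region, Slc40a1 held 1 in the 5′ untranslated region, and Tfrc held 4 in the 3′ untranslated region. Cp, Lcn2, Steap4, Ncoa4, Trf and Hmox1 held 0. The elements of both ferritin chains and the first of Tfrc are shown because the ferritin chains, which carry nearly the same element, differed in their mRNA response below. Loops are in capitals, and coordinates are GRCm38.
Fth1, chr19:9982733-9982759, plus strand: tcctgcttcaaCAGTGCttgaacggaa
Ftl1, chr7:45459780-45459806, minus strand: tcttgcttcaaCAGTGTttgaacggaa
Tfrc, chr16:32631220-32631246, plus strand: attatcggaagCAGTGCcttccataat

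RefSeq promoter windows (GRCm38.p6) of 300 bases, running from 250 before to 50 after a transcript start, were found for 7 of the 10 genes. Entries for Hmox1, Slc40a1 and Trf were not matched. Cp, Lcn2 and Steap4 are shown because they had the largest LPS differences among the raised genes below. Capitals mark matches on either strand to 4 motifs of inflammatory or basal transcription factors. These were NF-kB, STAT (TTCNNNGAA), C/EBP (TTGCNNAA) and the TATA box (TATAAA), found in 4.5%, 8.3%, 10.8% and 13.6% of 32851 such windows.
Cp, chr3:19956999-19957298, plus strand: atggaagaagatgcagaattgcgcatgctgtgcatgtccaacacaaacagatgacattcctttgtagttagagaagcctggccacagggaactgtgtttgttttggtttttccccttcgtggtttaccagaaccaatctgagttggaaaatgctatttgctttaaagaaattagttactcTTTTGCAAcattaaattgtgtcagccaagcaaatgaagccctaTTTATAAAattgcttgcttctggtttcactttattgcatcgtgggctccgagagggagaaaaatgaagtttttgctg
Lcn2, chr2:32387690-32387989, minus strand: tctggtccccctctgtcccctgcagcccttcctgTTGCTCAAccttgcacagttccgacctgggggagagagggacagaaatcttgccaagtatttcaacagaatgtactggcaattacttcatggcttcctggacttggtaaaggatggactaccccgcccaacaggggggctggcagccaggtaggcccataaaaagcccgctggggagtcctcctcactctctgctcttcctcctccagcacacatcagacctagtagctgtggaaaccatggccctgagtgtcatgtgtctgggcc
Steap4, chr5:7960222-7960521, plus strand: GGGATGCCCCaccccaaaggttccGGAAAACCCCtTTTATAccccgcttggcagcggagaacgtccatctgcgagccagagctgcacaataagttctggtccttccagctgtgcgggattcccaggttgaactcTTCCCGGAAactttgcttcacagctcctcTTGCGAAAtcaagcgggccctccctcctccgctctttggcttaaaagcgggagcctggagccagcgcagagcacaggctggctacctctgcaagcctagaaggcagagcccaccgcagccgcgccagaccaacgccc
The Steap4 window held 2 NF-kB matches, 1 STAT match, 1 C/EBP match and 1 reversed TATA match. In the Lcn2 window there was 1 C/EBP match. This Cp window held 1 C/EBP match and a TATA box that matches on both strands with an overlap of 4 letters, whereas the other Cp window held 0 matches. Each of the 3 windows shown held a C/EBP match. Of the windows not shown, 1 of Fth1 held 2 C/EBP matches and the other 1 TATA match, the 3 of Ncoa4 held 1 NF-kB match and 1 TATA match in all, the 1 of Ftl1 held 1 of each of these, and those of Tfrc held 0. Matches describe letters and are not shown to be bound.

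The libraries held 61291062 to 64521795 counts each, and 26414 genes were tested. Spermatid marker mRNAs summed to between 12590 and 15510 CPM (counts relative to library size, scaled between libraries by TMM) in every library of this tissue labelled testis, and the epididymal marker Lcn5 had 0 counts throughout. Erythroid markers (8 genes, Epb42 at 0 counts throughout) summed to 42.9 and 49.1 CPM in LPS+DHEA+Nb, 72.3 and 37.65 CPM in LPS+DHEA, 39.9 and 32.7 CPM in LPS, against 53.4 and 47.1 CPM in CTRL. Summed neutrophil markers (12 genes, 6 of them at 0 counts in CTRL) were at 4.22 and 6.14 CPM in LPS+DHEA+Nb, 10.3 and 7.08 CPM in LPS+DHEA, 10.6 and 7.87 CPM in LPS, against 4.95 and 4.33 CPM in CTRL. Markers of peritubular and smooth muscle cells (5 genes) summed to 110.7 and 103 CPM in LPS+DHEA+Nb, 157 and 183.5 CPM in LPS+DHEA, 181.5 and 176.5 CPM in LPS, against 105 and 95.4 CPM in CTRL. Leydig cell markers (7 genes) summed to 936 and 808 CPM in LPS+DHEA+Nb, 656 and 642 CPM in LPS+DHEA, 738 and 715 CPM in LPS, against 872.5 and 1004 CPM in CTRL. Insl3 was most of each Leydig sum and overlapped between LPS (544.5 and 575 CPM) and CTRL (551.5 and 597 CPM). Cyp17a1 had 44.2 and 17.4 CPM in LPS against 105.5 and 155.5 CPM in CTRL, and Hsd3b1 12.2 and 22.9 against 67.3 and 50.8. Cyp11a1 and Lhcgr were also lower in LPS, Star overlapped, and Nr5a1 was higher (38.6 and 38.0 CPM against 34.55 and 33.7 CPM). Sertoli cell markers (10 genes) summed to 1182 and 1034 CPM in LPS+DHEA+Nb, 1208 and 1305 CPM in LPS+DHEA, 1248 and 1304 CPM in LPS, against 1037 and 1041 CPM in CTRL. Most of each Sertoli sum was Clu, with 869 and 890 CPM in LPS, against 654.5 and 642 CPM in CTRL. Among the other Sertoli markers, Cldn11 was above CTRL in both LPS libraries, Amh was below, and Sox9 and Inha overlapped CTRL. The sum of 12 macrophage markers stayed between 99.1 and 124.6 CPM, but its members differed in opposite directions. Marco passed the threshold in LPS against CTRL, with 6.19 and 4.22 CPM in LPS against 0.304 and 0.219 CPM in CTRL. Itgam, not called, had 9.18 and 2.82 CPM in LPS against 0.448 and 0.672 CPM in CTRL, and Csf1r, not called, had 4.88 and 6.70 CPM in LPS against 11.8 and 9.77 CPM in CTRL. Cx3cr1, not called, had 1.35 and 1.10 CPM in LPS against 2.88 and 3.39 CPM in CTRL. These examples were chosen after their values were seen. In whole tissue, fewer cells of a type and less RNA per cell cannot be told apart.

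Of the 10 genes, 4 were higher in LPS than in CTRL (Cp, Lcn2, Steap4 and Fth1) and 1 was lower (Ncoa4) at an adjusted p under 0.05 in edgeR's quasi-likelihood test over all genes. Over all genes tested, 0.257% were called higher and 0.0379% lower (0.295% in either direction). Nothing is read from the members' count against that background, because the genes were chosen for these differences. The median log2 fold change of the 10 genes was 0.16, beside -0.002 over all genes.

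**Figure D1:**
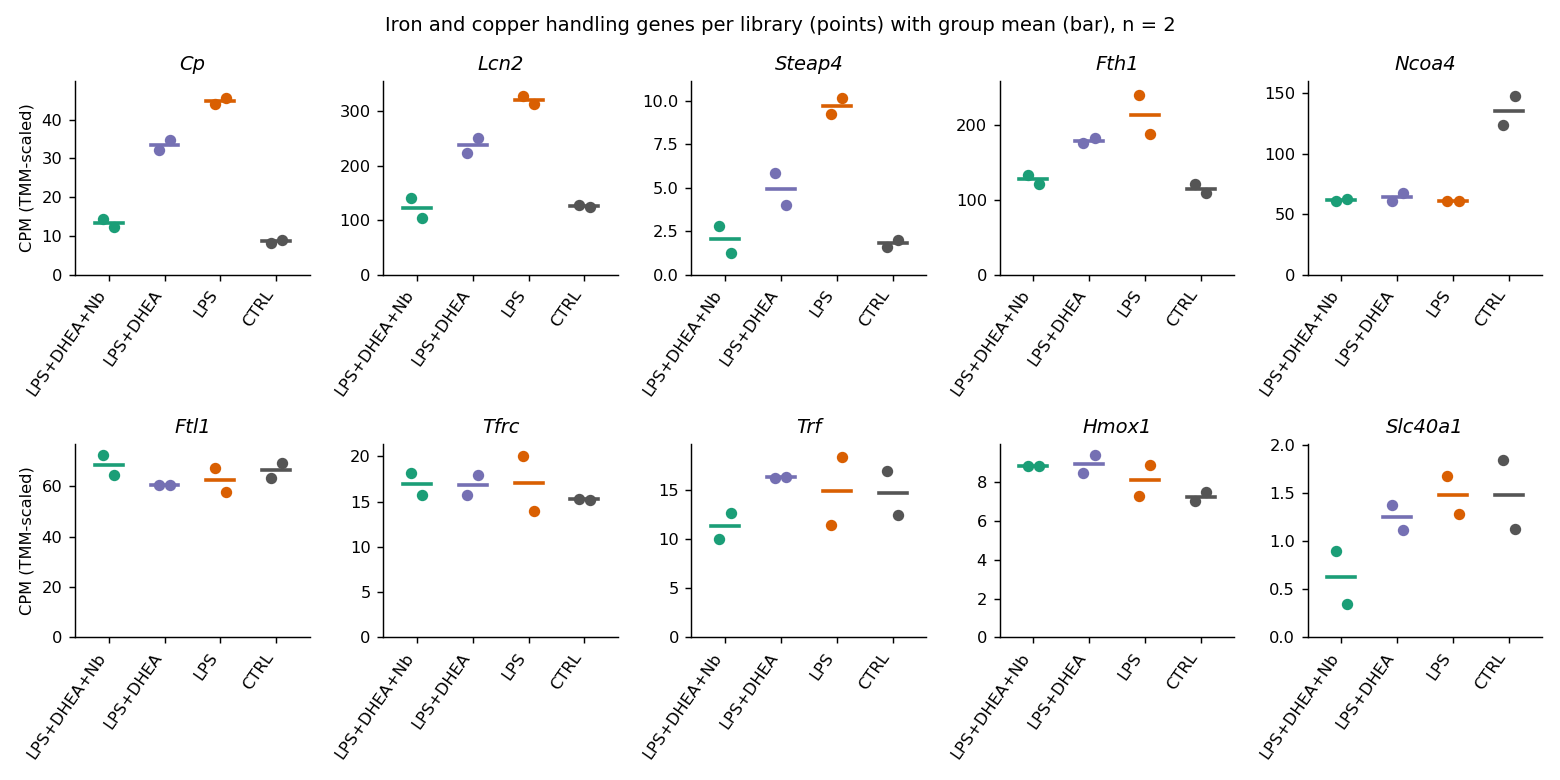
CPM, scaled by the trimmed mean of M values (TMM), of the 10 genes in each library (points) with the mean of the group (bar); n = 2 libraries a group, and each panel has its own linear axis from 0. Cp, Lcn2, Steap4 and Fth1 are highest in LPS and lower in LPS+DHEA+Nb. In LPS+DHEA+Nb, Cp (14.3 and 12.2 CPM) stays above CTRL (8.21 and 9.03 CPM), and Fth1 stays narrowly above it (133.5 and 121.7 against 120.8 and 108.8 CPM). Ncoa4 is low in all 3 LPS-treated groups, and the 5 genes in the lower row show no step of that kind.

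Cp encodes ceruloplasmin, a copper-carrying ferroxidase that oxidises iron so that transferrin can bind it. Cp (ENSMUSG00000003617, chr3:19957054-20009145) had 14.3 and 12.2 CPM in LPS+DHEA+Nb, 32.2 and 34.6 CPM in LPS+DHEA, 43.9 and 45.7 CPM in LPS, against 8.21 and 9.03 CPM in CTRL. Its groups fell in 4 steps without overlap, with LPS highest and CTRL lowest. The log2 fold change in LPS over CTRL was 2.38 (SE 0.12), and the mean was 44.8 ± 1.23 CPM in LPS and 8.62 ± 0.58 CPM in CTRL (SD, n = 2 each). Hps3, which overlaps Cp on the opposite strand, had only 273 to 353 counts in any library, beside 514 to 2856 for Cp.

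Lcn2 encodes lipocalin 2, which binds bacterial siderophores and so denies iron to bacteria. Lcn2 (ENSMUSG00000026822, chr2:32384633-32388252) had 139.9 and 104 CPM in LPS+DHEA+Nb, 224 and 250.1 CPM in LPS+DHEA, 327 and 314 CPM in LPS, against 127 and 125 CPM in CTRL. The LPS libraries were the highest and the LPS+DHEA libraries next, while the LPS+DHEA+Nb libraries lay on both sides of CTRL. Its log2 fold change in LPS over CTRL was 1.35 (SE 0.12). Neutrophils are a known source of lipocalin 2. The neutrophil marker S100a8 had 81 and 49 counts in LPS, against 0 in both CTRL libraries. Of the same marker list, S100a9 (155 and 75 counts in LPS, against 0 and 5 in CTRL) was also above CTRL in both LPS libraries. So were Ngp, Retnlg, Cxcr2, Csf3r and Mmp9. Mpo (192 and 204 counts in LPS, against 200 and 197 counts in CTRL), Camp, Ltf, Elane and Mmp8 were not. Lcn2 had 20770 and 19620 counts in LPS, against 7949 and 7992 counts in CTRL. The part of neutrophils in the rise of Lcn2 was not tested.

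Steap4 encodes a metalloreductase that reduces iron and copper for uptake. Steap4 (ENSMUSG00000012428, chr5:7960457-7982213) had 2.80 and 1.26 CPM in LPS+DHEA+Nb, 5.84 and 4.01 CPM in LPS+DHEA, 9.23 and 10.2 CPM in LPS, against 1.61 and 2.02 CPM in CTRL. As for Lcn2, LPS was highest, LPS+DHEA second, and LPS+DHEA+Nb spanned CTRL. The log2 fold change in LPS over CTRL was 2.42 (SE 0.35), on 586 and 635 counts in LPS, against 101 and 129 counts in CTRL.

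The ferritin chains parted. Fth1 encodes the ferritin heavy chain, which oxidises iron on its way into the shell. Fth1 (ENSMUSG00000024661, chr19:9980598-9985098) had 133.5 and 122 CPM in LPS+DHEA+Nb, 176 and 183 CPM in LPS+DHEA, 240.2 and 188 CPM in LPS, against 121 and 109 CPM in CTRL. The LPS libraries differed most from each other, the lower of them lying just above LPS+DHEA. The log2 fold change in LPS over CTRL was 0.90 (SE 0.11). Ftl1 encodes the light chain, which helps to form the iron core. Ftl1 (ENSMUSG00000050708, chr7:45457944-45459884) had 72.4 and 64.2 CPM in LPS+DHEA+Nb, 60.3 and 60.4 CPM in LPS+DHEA, 67.3 and 57.6 CPM in LPS, against 63.1 and 69.3 CPM in CTRL. LPS and CTRL overlapped, with a log2 fold change of -0.08 (SE 0.10). The near-identical copies of Ftl1 (10 found) summed to at most 4.82% of its counts in any library, and the 1 copy of Fth1 had 0 counts. Gm22133, a miRNA gene that overlaps Ftl1 on the same strand, had 482 to 576 counts in any library, beside 3601 to 4598 for Ftl1. Its LPS and CTRL libraries overlapped, and its part in the level of Ftl1 and in the ratio below was not tested.

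Per length, in TPM (counts divided by exon length, relative to their sum in the library), the ratio of Fth1 to Ftl1 was 0.713 and 0.732 in LPS+DHEA+Nb, 1.13 and 1.17 in LPS+DHEA, 1.38 and 1.26 in LPS, against 0.739 and 0.607 in CTRL. Exon length merged all annotated exons of a gene, so it can exceed the length of the transcripts expressed. On that length, heavy chain mRNA was above light chain mRNA in the LPS and LPS+DHEA libraries and below it in the other 4. The crossing of 1 rests on the division by exon length (3469 bases for Fth1 and 1340 for Ftl1): the ratio of CPM was above 1 in all 8 libraries, at 1.85 and 1.90 in LPS+DHEA+Nb, 2.92 and 3.02 in LPS+DHEA, 3.57 and 3.27 in LPS, against 1.91 and 1.57 in CTRL. Means of the ratio were 0.722 ± 0.0136 in LPS+DHEA+Nb, 1.15 ± 0.0286 in LPS+DHEA, 1.32 ± 0.083 in LPS and 0.673 ± 0.0936 in CTRL (SD, n = 2 each), and this ratio was not tested.

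**Figure D2:**
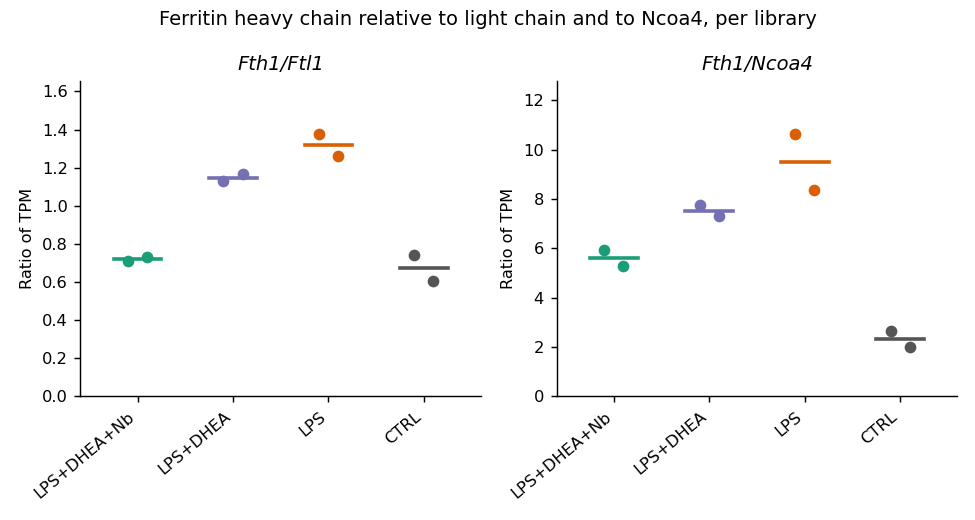
Ratio of TPM of Fth1 to Ftl1 (left) and of Fth1 to Ncoa4 (right) in each library (points) with the group mean (bar), n = 2 libraries a group; each linear axis starts at 0. The ratio of heavy to light chain is back near CTRL in LPS+DHEA+Nb. The ratio of Fth1 to Ncoa4 is 5.94 and 5.28 in LPS+DHEA+Nb, above the 2.65 and 1.99 in CTRL. As a ratio of CPM, Fth1 to Ncoa4 is 2.20 and 1.955 in LPS+DHEA+Nb, above the 0.98 and 0.735 in CTRL.

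Ncoa4 encodes the receptor that delivers ferritin to lysosomes for breakdown, which frees the stored iron. Ncoa4 (ENSMUSG00000056234, chr14:32159865-32179855) had 60.7 and 62.3 CPM in LPS+DHEA+Nb, 61.3 and 67.5 CPM in LPS+DHEA, 60.9 and 60.6 CPM in LPS, against 123 and 148 CPM in CTRL. All 6 libraries of LPS-treated mice lay far below both CTRL libraries and close to each other. Its log2 fold change in LPS over CTRL was -1.16 (SE 0.10). Gm6768, a processed pseudogene on chromosome 12 that shares 99.6% of 1883 aligned bases with Ncoa4, had 2748 and 2439 counts in LPS+DHEA+Nb, 2238 and 2336 in LPS+DHEA, 2575 and 2311 in LPS, against 2370 and 2450 in CTRL. Those counts overlapped between LPS and CTRL, and reads of such copies can be split between them, so the size of the Ncoa4 difference is uncertain. With both summed, as an alternative chosen after seeing the data, the log2 fold change was -0.76 in LPS+DHEA+Nb, -0.78 in LPS+DHEA and -0.80 in LPS, each over CTRL, and all 3 stayed past the threshold.

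The genes of iron uptake, export and heme breakdown did not pass the threshold in any of the 6 comparisons. Trf encodes transferrin, the iron carrier of plasma and of the seminiferous tubule. Trf (ENSMUSG00000032554, chr9:103204001-103230444) had 10.04 and 12.6 CPM in LPS+DHEA+Nb, 16.2 and 16.3 CPM in LPS+DHEA, 11.4 and 18.3 CPM in LPS, against 16.9 and 12.4 CPM in CTRL. Its LPS libraries enclosed both CTRL libraries, and the log2 fold change was 0.02 (SE 0.23). Tfrc encodes the transferrin receptor. Tfrc (ENSMUSG00000022797, chr16:32608920-32632794) had 18.1 and 15.7 CPM in LPS+DHEA+Nb, 15.7 and 17.9 CPM in LPS+DHEA, 20.1 and 14.0 CPM in LPS, against 15.3 and 15.2 CPM in CTRL. LPS libraries again enclosed CTRL, with a log2 fold change of 0.16 (SE 0.17).

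Slc40a1 encodes ferroportin, the iron exporter. Slc40a1 (ENSMUSG00000025993, chr1:45908068-45926523) was the lowest of the 10 genes, with 57 and 22 counts (0.897 and 0.347 CPM) in LPS+DHEA+Nb, 88 and 68 counts in LPS+DHEA, 106 and 80 counts in LPS, against 115 and 72 counts (1.84 and 1.13 CPM) in CTRL. Both LPS+DHEA+Nb libraries were below all others, which overlapped each other. The log2 fold change in LPS+DHEA+Nb was -1.24 (SE 0.47) over LPS and -1.25 (SE 0.47) over CTRL. Hmox1 encodes heme oxygenase 1, which releases iron from heme. Hmox1 (ENSMUSG00000005413, chr8:75093621-75100589) had 8.84 and 8.86 CPM in LPS+DHEA+Nb, 8.51 and 9.40 CPM in LPS+DHEA, 7.31 and 8.91 CPM in LPS, against 7.03 and 7.52 CPM in CTRL. The CTRL libraries were below both treated groups but overlapped LPS, where the log2 fold change was 0.16 (SE 0.16).

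Ordered by length-scaled level in CTRL, Ftl1 (128 ± 9.25 TPM) and Lcn2 (124 ± 0.625 TPM) stood first and did not differ beyond their spread (SD, n = 2 each, as for the levels that follow). Fth1 followed at 85.7 ± 5.74 TPM and Ncoa4 at 37.5 ± 5.09 TPM. Trf (11.4 ± 2.41 TPM) and Hmox1 (10.8 ± 0.582 TPM) were within their spread of each other. Below them came Tfrc at 6.38 ± 0.0138 TPM, Cp at 2.33 ± 0.173 TPM, Steap4 at 1.49 ± 0.244 TPM and Slc40a1 at 0.426 ± 0.142 TPM. In LPS, Lcn2 (327 ± 6.17 TPM) and Fth1 (165 ± 26.7 TPM) stood above Ftl1 (125 ± 12.4 TPM), and Cp reached 12.6 ± 0.474 TPM, within the spread of Trf (12 ± 4.09 TPM) and Hmox1 (12.4 ± 1.86 TPM). These orders depend on the merged exon length. In CPM, the CTRL means were 135.7 for Ncoa4, 126 for Lcn2, 114.8 for Fth1 and 66.2 for Ftl1. The LPS means in CPM were 44.8 for Cp, 14.8 for Trf and 8.11 for Hmox1. LPS and CTRL libraries did not overlap for the 5 called genes, as for 37% of all genes tested.

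Within the LPS and CTRL comparison, the call of Steap4 ended when any 1 of the 4 LPS and CTRL libraries was left out (log2 fold change 2.26 to 2.58), and that of Fth1 ended without CTRL replicate 2 or in a fit of these groups alone, so that 3 members were called without CTRL replicate 2. Acta2, the smooth muscle actin gene of the peritubular list, also rose, with 98.3 CPM in LPS against 46.0 CPM in CTRL (adjusted p = 0.000737 in edgeR at a log2 fold change of 1.10), and the part of that cell type or of Sertoli cells in these results was not tested.

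DHEA given after LPS left all 4 raised genes below their LPS levels, but none passed the threshold. In LPS+DHEA against LPS, 0 of the 10 genes were called by edgeR, where 0.0189% of all genes tested were called. DESeq2 and limma-voom called 0 as well, and 4 were under an unadjusted p of 0.05, as were 3.51% of all genes tested. The log2 fold change in LPS+DHEA over LPS was -0.42 (SE 0.11) for Cp, -0.43 (SE 0.12) for Lcn2, -0.98 (SE 0.33) for Steap4 and -0.26 (SE 0.11) for Fth1. In each of the 4 genes both LPS+DHEA libraries lay below both LPS libraries, as for 15.7% of all genes tested. For Ncoa4 the value was 0.08 (SE 0.10), with both LPS+DHEA libraries slightly above LPS.

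With Nb23-bi added to DHEA, the same 4 genes were called lower than in LPS. LPS+DHEA+Nb against LPS gave 4 lower and 0 higher among the 10 genes, beside 0.129% lower and 0.0416% higher over all genes tested. The log2 fold change in LPS+DHEA+Nb over LPS was -1.76 (SE 0.12) for Cp, -1.39 (SE 0.12) for Lcn2, -2.25 (SE 0.35) for Steap4 and -0.75 (SE 0.11) for Fth1. Ncoa4 was at 0.02 (SE 0.10) and its libraries overlapped those of LPS. Acta2 fell as well, to 52.1 CPM in LPS+DHEA+Nb, against 98.3 CPM in LPS (adjusted p = 0.00443 in edgeR at a log2 fold change of -0.92). The count was 1 in a fit of these groups alone, where only the Cp call stayed, and 2 without LPS replicate 1, either LPS+DHEA library or LPS+DHEA+Nb replicate 2, which touched Steap4 and Fth1.

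Set directly against LPS+DHEA, LPS+DHEA+Nb had 2 of the 10 genes called lower, Cp at -1.34 (SE 0.12) and Lcn2 at -0.96 (SE 0.12), beside 0.0568% lower over all genes tested. Steap4 was at -1.28 (SE 0.34) and Fth1 at -0.49 (SE 0.11), neither called, with both LPS+DHEA+Nb libraries below both LPS+DHEA libraries in all 4 genes, as for 17.1% of all genes tested. Ncoa4 was at -0.07 (SE 0.10) with overlapping libraries. Acta2 fell here too, to 52.1 CPM in LPS+DHEA+Nb, against 92.95 CPM in LPS+DHEA (adjusted p = 0.0172 in edgeR at a log2 fold change of -0.84). The Lcn2 call ended without either CTRL, either LPS or either LPS+DHEA library, leaving 1 member called, and without LPS+DHEA+Nb replicate 1 there were 3, while DESeq2 called 4.

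**Figure D3:**
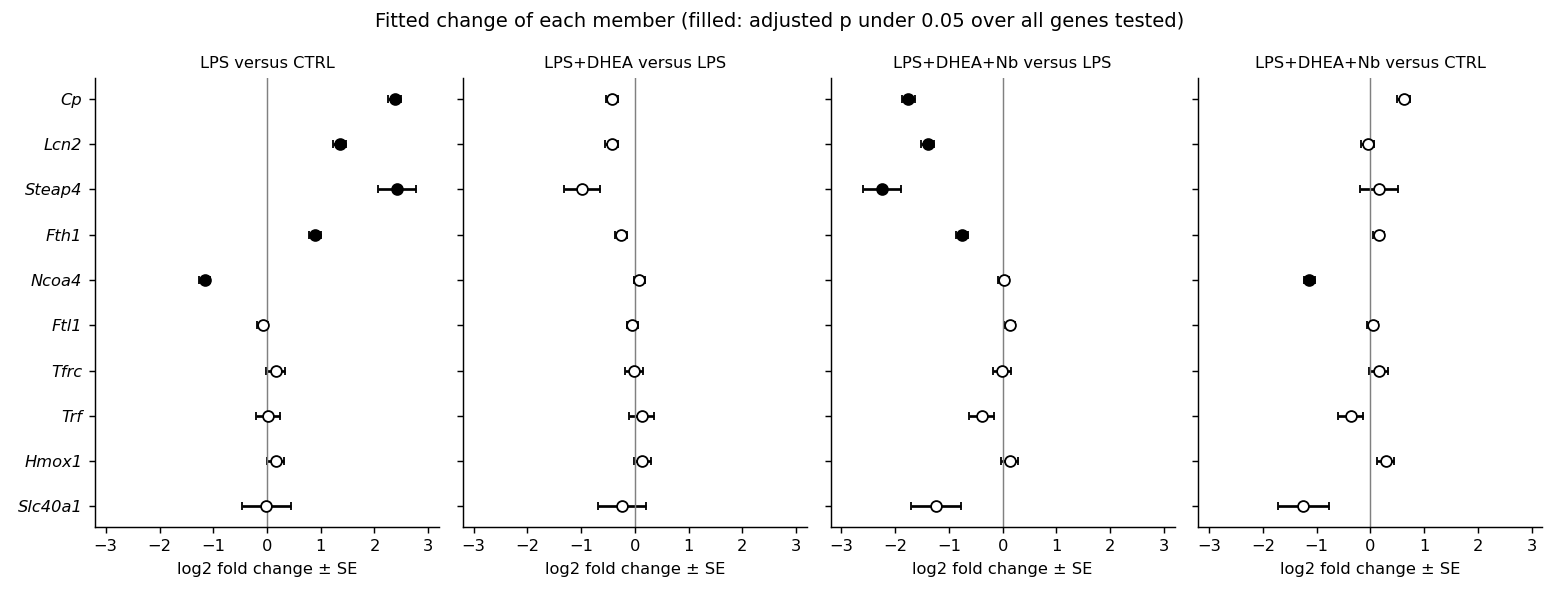
Fitted log2 fold change of each gene, first group over second (points), with its standard error (bars), in 4 of the 6 comparisons; filled points passed an adjusted p under 0.05 over all genes tested. Cp, Lcn2, Steap4 and Fth1 change side between LPS over CTRL and LPS+DHEA+Nb over LPS, and Ncoa4 alone is filled in LPS+DHEA+Nb over CTRL.

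Ncoa4 was called lower than in CTRL in both treated groups. LPS+DHEA had 2 genes called higher, Cp at 1.95 (SE 0.12) and Lcn2 at 0.91 (SE 0.12), and 1 lower, Ncoa4 at -1.07 (SE 0.10), beside 0.136% higher and 0.0151% lower over all genes tested. Steap4 (1.44, SE 0.34) and Fth1 (0.64, SE 0.11) were above CTRL in both LPS+DHEA libraries, as were 18.6% of all genes tested, without being called. The Lcn2 call ended without any 1 of the CTRL, LPS or LPS+DHEA libraries and with replicate number as a block, while DESeq2 called 5 of the 10 genes. Fth1 was called by DESeq2, under library size scaling, without the filter, under the block, in a fit of these groups alone and without either LPS library. LPS+DHEA+Nb had 1 gene called, Ncoa4 at -1.14 (SE 0.10), beside 0.0151% lower over all genes tested. Cp was at 0.62 (SE 0.12), not called by edgeR but called by DESeq2, and both its LPS+DHEA+Nb libraries were above CTRL, as for 16.4% of all genes tested. Lcn2 (-0.05, SE 0.12), Steap4 (0.16, SE 0.35) and Fth1 (0.15, SE 0.11) were close to 0. Libraries of Lcn2 and Steap4 overlapped CTRL, whereas both of Fth1 (133.5 and 121.7 CPM) lay above CTRL (120.8 and 108.8 CPM), by a narrow margin. The comparisons above share libraries, so their values for a gene are not independent of each other.

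The place of a treated group between the LPS mean (0%) and the CTRL mean (100%) on the log2 scale gives the contrast between genes that came back and those that did not. In LPS+DHEA+Nb, Cp lay 74.1% of the way (libraries 69.3% and 78.9%), Fth1 82.9% (75.4% and 90.3%), Steap4 97.5% (73.8% and 121.3%) and Lcn2 104.7% (88.7% and 120.8%). In LPS+DHEA, the same genes lay 17.8% (20.0% and 15.6%), 27.5% (30.5% and 24.5%), 41.3% (30.1% and 52.5%) and 32.4% (38.4% and 26.5%) of the way. Ncoa4 lay 1.5% of the way in LPS+DHEA+Nb (-0.1% and 3.1%) and 7.2% in LPS+DHEA (1.1% and 13.3%). These shares describe the chosen genes and were not tested. On the linear CPM scale the shares in LPS+DHEA were 31.5% for Cp, 35.0% for Fth1, 42.9% for Lcn2 and 60.6% for Steap4, in the same order as on the log2 scale, and in LPS+DHEA+Nb Cp (87.2%) and Fth1 (87.1%) stood level.

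**Figure D4:**
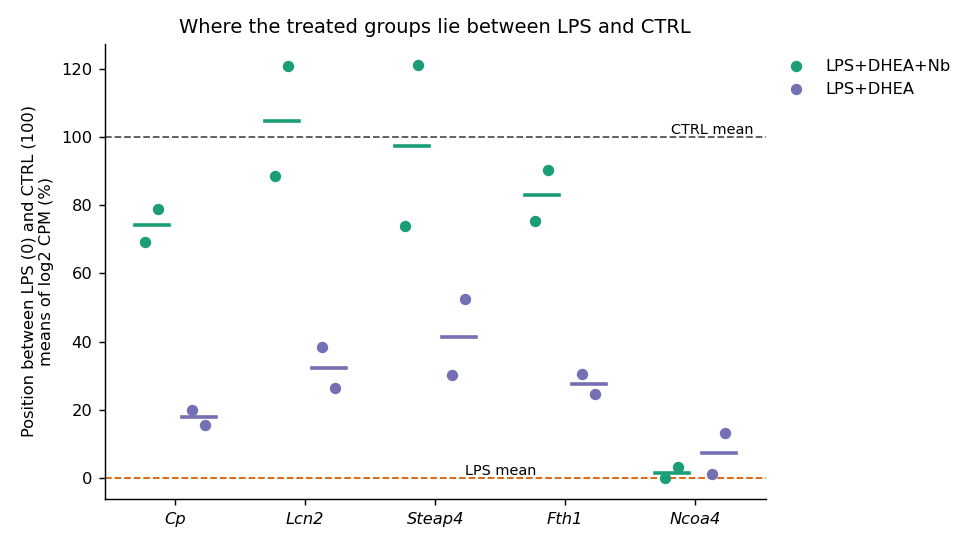
Position of LPS+DHEA+Nb and LPS+DHEA between the LPS mean (dashed line at 0) and the CTRL mean (dashed line at 100), in percent of the difference in mean log2 CPM; points are libraries and bars their mean, n = 2. Cp, Lcn2, Steap4 and Fth1 lie between 69.3% and 121.3% in LPS+DHEA+Nb and between 15.6% and 52.5% in LPS+DHEA, whereas Ncoa4 stays between -0.1% and 13.3%.

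Genes with the pattern most like a member were ranked by Pearson correlation of log2 CPM over the 8 libraries, among 14444 genes, as a description in which the libraries of a group stand together. Most like Cp were Icam1 (r = 0.996), the endothelial adhesion molecule, Pdpn (0.993), Ccn5 (0.99), the acute phase gene Saa1 (0.987) and the chemokine gene Cxcl13 (0.984). Icam1 had 2.85 and 2.70 CPM in LPS+DHEA+Nb, 6.90 and 6.94 CPM in LPS+DHEA, 7.92 and 8.17 CPM in LPS, against 1.87 and 1.92 CPM in CTRL. Most like Lcn2 were Pid1 and Ldhd (0.987 each), Nedd9 and Clip3 (0.983 each) and Cxcl14 (0.982). For Steap4 they were Clip3 (0.991), Tgm2 (0.982), Ctnnd1 and Cebpd (0.981 each) and Sipa1l2 (0.973). Cebpd, which encodes the transcription factor C/EBP delta, had 3.82 and 3.03 CPM in LPS+DHEA+Nb, 6.07 and 4.61 CPM in LPS+DHEA, 7.21 and 9.20 CPM in LPS, against 3.26 and 3.56 CPM in CTRL. Most like Ncoa4 were Map2k2 and Flad1 (0.978 each), Nedd8 (0.976), Afap1l1 (0.975) and Zfp426 (0.96). Their steps were smaller than that of Ncoa4: Nedd8, which encodes a ubiquitin-like modifier, had 49.2 and 49.7 CPM in LPS+DHEA+Nb, 47.5 and 49.1 CPM in LPS+DHEA, 50.5 and 46.1 CPM in LPS, against 62.7 and 65.6 CPM in CTRL.

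No wider gene of iron, heme or copper handling was called in LPS against CTRL. They were 93 genes in 8 lists, of which 92 were in the files and 87 were tested. Gene lists were chosen with earlier results of these data known, so p-values printed for their genes are a description too. In LPS against CTRL, edgeR called 0 of the 87 (0.295% of all genes tested), DESeq2 and limma-voom also called 0, and 7 were under an unadjusted p of 0.05, as were 7.11% of all genes tested. Their median log2 fold change was 0.04, and 53 of 87 were above 0. List medians lay between -0.09 (ferritin relatives and iron chaperones, 11 tested) and 0.33 (iron withholding in host defence, 7 tested). Hamp and Hamp2, which encode the iron hormone hepcidin and its relative, were not tested, with at most 6 and 9 counts, and neither were Ltf, Hpx and Ftl1-ps2, with at most 11, 12 and 2 counts.

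**Figure D5:**
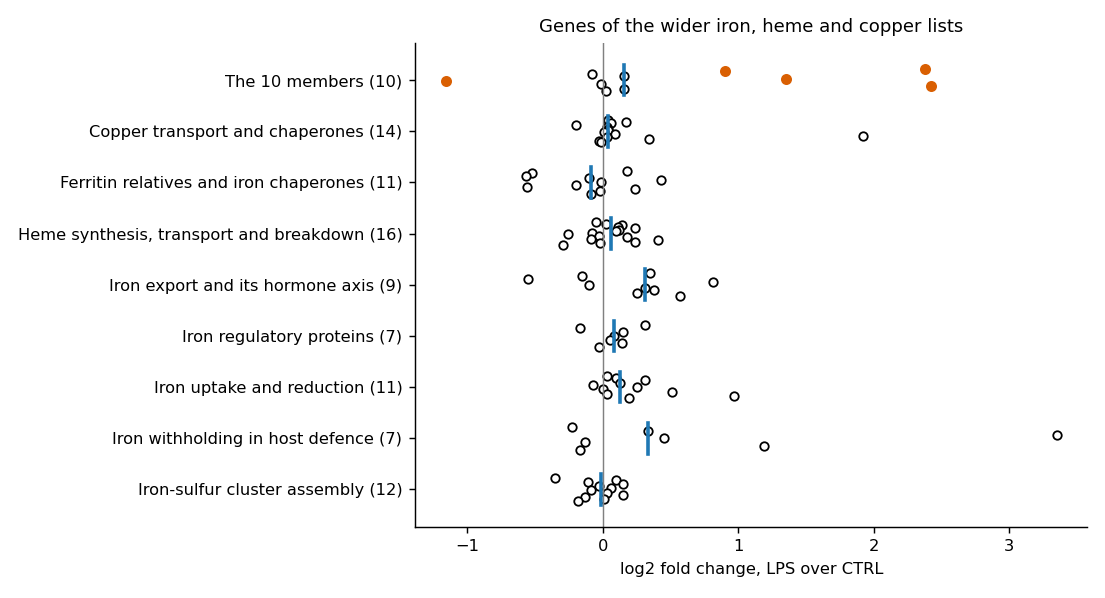
Fitted log2 fold change in LPS over CTRL for each tested gene (points) of the 10 members and of 8 wider lists, with the number of genes tested in brackets and the median as a vertical bar; filled points passed the threshold. The 5 filled points are all members, chosen with these values known, and the medians of the wider lists lie between -0.09 and 0.33.

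Among host defence genes, Hp, which encodes the hemoglobin scavenger haptoglobin, had 3.21 and 1.58 CPM in LPS+DHEA+Nb, 16.1 and 10.1 CPM in LPS+DHEA, 16.2 and 46.0 CPM in LPS, against 0.847 and 5.25 CPM in CTRL. The LPS libraries were the highest, but the values spread widely within each group, and the log2 fold change of 3.35 in LPS over CTRL (SE 1.1) had an adjusted p of 0.653 in edgeR's quasi-likelihood test with Benjamini-Hochberg adjustment. Slc11a1, the metal transporter of phagosomes, was at 1.19 (SE 0.29, adjusted p = 0.209 in edgeR). Lrp1, a receptor that takes up heme bound to hemopexin, was at 0.45 (SE 0.13, adjusted p = 0.327 in edgeR). None of these passed the threshold.

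The uptake genes Steap3, an endosomal iron reductase (0.97, SE 0.37, adjusted p = 0.601 in edgeR), and Slc11a2, the divalent metal transporter (0.31, SE 0.13, adjusted p = 0.636), were positive and not called in LPS over CTRL. Ftmt, the mitochondrial ferritin, was at 0.24 (SE 0.09, adjusted p = 0.585 in edgeR) with 81.3 CPM in LPS and 68.6 CPM in CTRL. The proteins that bind the elements shown above are encoded by Aco1 and Ireb2, neither of them called: Aco1 was at 0.31 (SE 0.15, adjusted p = 0.753 in edgeR) and Ireb2 at 0.14 (SE 0.09, adjusted p = 0.841). For copper, Slc31a2, a copper transporter, was at 0.34 (SE 0.14, adjusted p = 0.656 in edgeR) and Ccs, the copper chaperone of superoxide dismutase, at -0.20 (SE 0.11, adjusted p = 0.789). Sco2, a copper chaperone of mitochondria, was high in 1 library of LPS+DHEA (10.2 CPM) and 1 of LPS (8.91 CPM) and between 0.655 and 2.09 CPM in the other 6. In heme synthesis, Uros was at -0.29 (SE 0.14, adjusted p = 0.732 in edgeR), and in iron-sulfur cluster assembly Nfu1 was at -0.18 (SE 0.08, adjusted p = 0.707).

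Over the 6 comparisons, edgeR called a single wider gene, Cd163 in LPS+DHEA+Nb against LPS (1 of 87, beside 0.17% of all genes tested). In that comparison DESeq2 called 3, Cd163, Hp and Lrp1, and limma-voom 0. Against CTRL, DESeq2 called Cd163 in LPS+DHEA+Nb as well, which edgeR did only without the filter on low counts. Cd163, the macrophage receptor for haptoglobin bound to hemoglobin, had 13 and 27 counts (0.205 and 0.426 CPM) in LPS+DHEA+Nb, 45 and 54 counts (0.704 and 0.883 CPM) in LPS+DHEA, 185 and 125 counts (2.91 and 2.00 CPM) in LPS, against 94 and 154 counts (1.502 and 2.41 CPM) in CTRL. It fell in LPS+DHEA+Nb relative to LPS (log2 fold change -2.95, SE 0.45, adjusted p = 0.0318, edgeR's quasi-likelihood test) and, unlike Cp, Lcn2, Steap4 and Fth1, had LPS libraries that overlapped CTRL. Both groups given DHEA lay below both groups not given it. The summed macrophage markers, Cd163 among them, overlapped between these groups, with 114 and 124.6 CPM in LPS+DHEA+Nb, against 114 and 113.5 CPM in LPS. The Cd163 call in LPS+DHEA+Nb against LPS ended under limma-voom, in a fit of these groups alone, and without LPS replicate 1, either LPS+DHEA library or LPS+DHEA+Nb replicate 1 (log2 fold change -3.57 to -2.52 over the alternatives).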

How the data were processed

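Values of the 10 genes came from per-library tables of estimated counts per Ensembl gene, as the authors deposited them. Per the submitters' processing notes, HISAT, featureCounts 1.5.0-p3 and GRCm38 were used. Per the labels' protocols, total RNA was extracted with TRIzol (the text names islets, the tissue label testis) and made into stranded libraries. The strand setting of counting and the treatment of reads with several matches were not stated. Values were already whole, and tests for counts were run on them as they stood. Multiples of 4 made up 33.5% of the values from 1 to 40, beside 25% of those from 1000 to 10000, so some low values may not be single reads, and dividing all values by 4 was among the alternatives.

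Here, edgeR 4.0.16 in R 4.3.3 fitted the quasi-likelihood model with TMM scaling to all 8 libraries in 4 groups (4 residual degrees of freedom), after a filter at a minimum count of 10 and a minimum total of 15. P-values were adjusted by Benjamini-Hochberg over 26414 genes, with a threshold of 0.05. Alternatives used DESeq2 1.42.0 and limma 3.58.1. The script was tested on simulated data. CPM are TMM-scaled, and TPM use GENCODE exon length with all exons of a gene merged. Near-identical copies were searched with blastn 2.17.0, at 90% identity over 300 bases or more. The members and gene lists were chosen with earlier results of these data known. All members are named, and from the wider lists each called gene and up to 3 per list with the smallest p in LPS against CTRL were eligible. Leaving out a library leaves 1 in its group, which is then assumed to vary like the others.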

Additional observations from a re-analysis of the deposited data

How the results depend on the processing

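Each comparison was refitted under 17 alternatives, and no value of a member past the threshold changed sign. The number of the 10 genes called was 5 in LPS over CTRL (3 to 5 without single replicates), 0 in LPS+DHEA over LPS (0 throughout), 4 in LPS+DHEA+Nb over LPS (2 to 3 without single replicates, 1 with only these groups fitted), 2 in LPS+DHEA+Nb over LPS+DHEA (1 to 3 without single replicates, 1 with only these groups fitted, 4 by DESeq2), 3 in LPS+DHEA over CTRL (2 to 4 without single replicates, 5 by DESeq2) and 1 in LPS+DHEA+Nb over CTRL (1 without any single replicate, 2 by DESeq2). The calls of Cp and Ncoa4 held in 17 of 17 alternatives in each comparison that called them, and so did that of Lcn2 in LPS over CTRL, whereas Steap4 kept its call in LPS over CTRL in 13 and in LPS+DHEA+Nb over LPS in 9. Fth1 kept its calls in 15 and 11. Equal replicate numbers did not pair the libraries (correlations of deviations between -0.032 and 0.028). With replicate number as a block, 1 member was called in LPS+DHEA+Nb over LPS+DHEA, where the Lcn2 call ended, and in LPS+DHEA over CTRL Lcn2 lost its call and Fth1 gained one. Over all genes, calls numbered 78 in LPS over CTRL (49 by limma-voom, 293 by DESeq2), 5 in LPS+DHEA over LPS (35 by DESeq2), 45 in LPS+DHEA+Nb over LPS (19 with only these groups fitted, 207 by DESeq2), 23 in LPS+DHEA+Nb over LPS+DHEA (11 by limma-voom, 116 by DESeq2), 40 in LPS+DHEA over CTRL (23 and 183) and 8 in LPS+DHEA+Nb over CTRL (4 and 76), the last pairs given for limma-voom and DESeq2. The cause of these differences was not tested. With 2 libraries a group and a common biological coefficient of variation of 0.231, differences the size of those of Trf, Tfrc and Hmox1 were not detectable, and a missed threshold does not show that levels were equal. Slc40a1 rests on 22 to 115 counts a library.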
